A study of Mus musculus with 20 samples.

Results

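The SLC39 family, also called ZIP, codes for membrane transporters that move zinc into the cytosol, and 10 of its genes were followed here across 20 messenger RNA libraries from mouse hippocampal cultures. The members were taken by symbol and not by a cut on their values, though earlier results of these data were known. They are Slc39a1, Slc39a3, Slc39a6, Slc39a7, Slc39a8, Slc39a9, Slc39a10, Slc39a11, Slc39a13 and Slc39a14. They are 10 of 24419 genes counted. Of these genes 14411 passed the filter on low counts, and 9 of the 10 members were among them, the exception being Slc39a8. All 4 groups of 5 libraries came from C57BL6 tissue taken at embryonic day 18 and pooled from 4 embryos, kept in Neurobasal with B27, given 4 µM of the antimitotic cytosine arabinoside from day 3 to day 6, and used at day 10 in vitro. The control group was unstimulated. The other groups were stimulated for 2 min with 50 µM glutamate alone, with 50 µM glutamate and 10 µM ZnCl2, or with 50 µM glutamate and 10 µM TPA, which is tris(2-pyridylmethyl)amine, a compound that binds zinc and was also present for 1 min beforehand. Lysis followed after 90 min. No group received zinc or TPA without glutamate, and the tissue was pooled, so p-values measure the spread between these libraries, which may be technical.

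ZIP proteins work against the SLC30 exporters, which carry zinc out of the cytosol or into organelles and vesicles. Some ZIP proteins act mainly at the cell surface and take up zinc from outside, while others sit in the endoplasmic reticulum or Golgi and release stored zinc into the cytosol. In the hippocampus, glutamatergic terminals of the mossy fibres store zinc in synaptic vesicles and release it with glutamate, and a rise in cytosolic zinc can switch on metallothionein genes through the transcription factor MTF1.

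Library totals ran from 28692470 to 40934630 counts. Levels below are in CPM, which are counts put on a shared library size by TMM factors, for the same gene between libraries, and in the deposited TPM, which is also divided by gene length, between genes. The defining markers of neurons, of glutamatergic and GABAergic neurons and of hippocampus were all present, as were 7 of 7 astrocyte markers. The summed neuron markers ran from 3998 to 5060 CPM and the astrocyte markers from 706 to 927 CPM, with overlapping ranges in the 4 groups, while microglial markers summed to at most 3.85 CPM and the 3 blood markers had 0 counts. The summed fibroblast markers were low but did not overlap between control (2.58 to 3.99 CPM) and zinc (4.12 to 5.39 CPM), and their part in the comparison of those groups was not tested. In bulk RNA, fewer cells of a type and less RNA per cell cannot be told apart. Glutamate replicates 5 and 4 and zinc replicate 5 lay farthest from their group means, with root mean square deviations of 0.249, 0.240 and 0.239 on the log2 CPM scale. Results for several members are also given without them.

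Because zinc is known to act on transcription through MTF1 bound at metal response elements, the promoters were searched for the element's core, TGCACNC or TGCGCNC, on both strands. The windows came from RefSeq (build GRCm38.p6) and covered 250 bases before to 50 bases after each start site. Of the 8 members with a window, 4 held at least 1 match, in 5 of their 11 windows. Of all genes with a window, 28.2% held a match, and 25.7% of 32851 windows did, so the core was also frequent elsewhere. Of the tested members, Slc39a11 had the largest relative difference in CPM between groups, which did not pass the edgeR F test (adjusted p = 0.244). Slc39a3 had the smallest spread between libraries. The matches of these genes are shown 5′ to 3′ on the gene's strand, with the core or its reverse complement in capitals.
Slc39a11, first start site, chr11:113650093-113650137, minus strand: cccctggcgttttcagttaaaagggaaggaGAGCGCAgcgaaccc
Slc39a11, second start site, chr11:113565919-113565985, minus strand: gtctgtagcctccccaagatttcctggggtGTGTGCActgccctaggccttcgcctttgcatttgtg
Slc39a3, chr10:81037423-81037489, minus strand: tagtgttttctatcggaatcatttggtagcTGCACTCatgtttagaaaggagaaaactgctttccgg
Both Slc39a11 matches are on the opposite strand, beginning 15 bases before the first start site and 140 before the second, and the Slc39a3 match is on the gene's own strand, 144 bases before its start site. The second Slc39a11 start site is where the gene model used for the deposited counts begins. The Slc39a3 model used for those counts begins at chr10:81033912, downstream of the start site and bases shown here. Neither Slc39a10 window holds these letters. A match describes letters only and is not a measured binding site.

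Transcript levels set the members far apart. Slc39a7, which codes for the zinc transporter of the endoplasmic reticulum, was highest with a mean of 121 TPM ± 6.70 (SD, n = 20). It was followed by Slc39a6 with 104 TPM ± 4.94, Slc39a3 with 81.8 TPM ± 2.90, Slc39a10 with 60.9 TPM ± 4.77 and Slc39a9 with 50.6 TPM ± 2.34. Slc39a11 had a mean of 29.2 TPM ± 2.54, Slc39a1 of 26.4 TPM ± 1.15, Slc39a13 of 15.6 TPM ± 1.56 and Slc39a14 of 9.54 TPM ± 0.534. Slc39a8 stood at 0.0593 TPM. Neighbours in this order overlapped between libraries in 3 cases, Slc39a7 with Slc39a6, Slc39a10 with Slc39a9, and Slc39a11 with Slc39a1, and the other neighbours had separate ranges. The order was the same in the means of all 4 groups and in 17 of 20 single libraries. Slc39a7 and Slc39a6 together made 45.1% of the summed TPM of the 10 members, and the 5 highest made 83.8%. That sum averaged 499 TPM ± 6.53 in control, 507 TPM ± 13.6 with glutamate, 495 TPM ± 15.3 with glutamate and zinc and 493 TPM ± 9.64 with glutamate and TPA (SD, n = 5 each), ranges that overlapped.

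**Figure D1:**
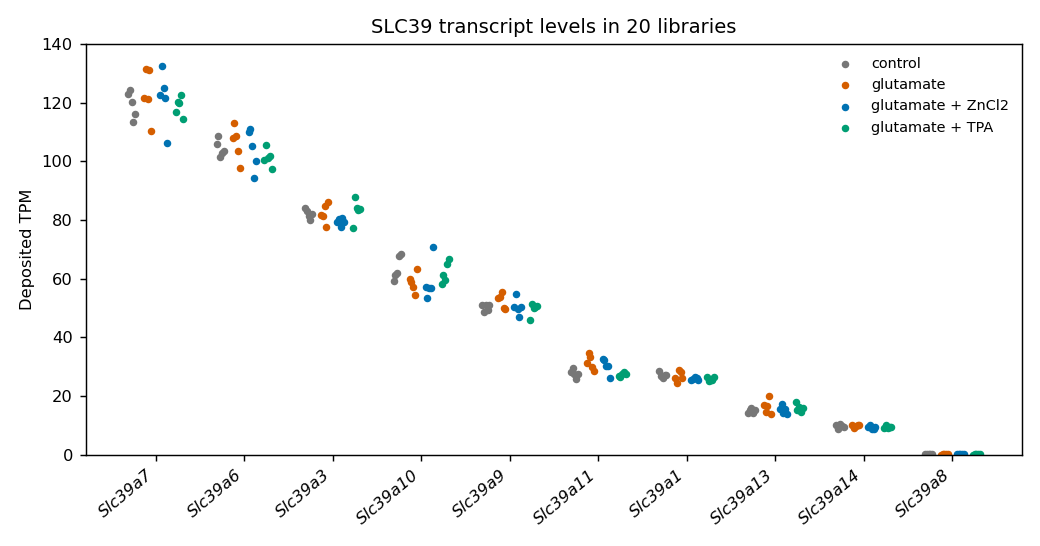
Deposited TPM (linear vertical axis) of the 10 SLC39 members, ordered by mean; each point is 1 library and colours mark the 4 groups. Slc39a7 and Slc39a6 lie above 94 TPM in every library, Slc39a8 lies on the baseline at no more than 0.145 TPM, and the groups overlap within each gene except for TPA against glutamate in Slc39a11.

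None of the 9 tested members passed the test for a difference among the 4 groups. By edgeR's quasi-likelihood F test of any difference among the groups, 0 of 9 had a Benjamini-Hochberg adjusted p under 0.05, against 0.167% of all genes tested, and 1, Slc39a11, had an unadjusted p under 0.05, against 10.4% of all genes. DESeq2 also called 0 members in this test, where it called 193 genes in all. Its smallest adjusted p among the members was 0.0596, for Slc39a11, near the threshold. By limma-voom with library weights, Slc39a11 (adjusted p = 0.00300) and Slc39a10 (0.0421) were called, as they were by edgeR without the 3 farthest libraries (0.00553 and 0.0444). Those fits also called many more genes in all, 3235 with limma-voom and 957 without the 3 libraries. The edgeR fit of all 20 libraries called 24 of 14411. The smallest values of this test belonged to Slc39a11 (adjusted p = 0.244), Slc39a10 (adjusted p = 0.679) and Slc39a3 (adjusted p = 0.762). The other 6 had adjusted p-values from 0.806 to 0.971. Over the 6 pairwise comparisons and 9 members, the outer limits of the 95% intervals were -19.4% (Slc39a11, TPA against glutamate) and 23.1% (Slc39a13, glutamate against control). The intervals are not adjusted for the number of comparisons, and the 6 comparisons share libraries with each other.

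Glutamate alone, set against control, asks what the brief stimulus left in these transcripts. None of the 9 members passed the edgeR threshold, against 0.0208% of all genes (3 genes), and 1 had an unadjusted p under 0.05, Slc39a11, against 4.98% of all genes. DESeq2 called 0 members. The members' median log2 fold change was 0.01, with 6 of 9 positive, and that of all genes was 0.00. Member values ran from -0.13 for Slc39a10 to 0.17 for Slc39a11, and no member had 5 glutamate libraries that all lay outside the 5 control libraries, against 0.985% of all genes.

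Zinc added to glutamate, set against glutamate alone, asks about the added metal. Again 0 of 9 members passed, against 0% of all genes, and 0 had an unadjusted p under 0.05, against 5.98% of all genes. DESeq2 called 0 members and 1 gene in all. Of the 9 values 8 were negative, with a median log2 fold change of -0.04 beside 0.00 for all genes, and they ran from -0.09 for Slc39a13 to 0.02 for Slc39a10. Groups without overlap were found for 0 members and 0.701% of all genes. The absolute log2 difference of the members had a median of 0.04, and that of all genes averaging 10 CPM or more was also 0.04.

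Glutamate with the chelator, set against glutamate alone, gave 0 of 9 members past the edgeR threshold, against 0% of all genes, and 0 by DESeq2, which called 1 gene in all. Slc39a11 was the 1 member with an unadjusted p under 0.05, against 7.15% of all genes, and the 1 member whose groups did not overlap, against 1.03% of all genes. Of the 9 values 7 were negative, with a median log2 fold change of -0.04 beside 0.00 for all genes.

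Chelator and zinc, both with glutamate, formed the comparison with the most genes called, 74 of all genes tested (0.513%). None of the 9 members was among them, DESeq2 called 0 members, and 1, Slc39a11, had an unadjusted p under 0.05 beside 16.0% of all genes. No member had groups without overlap, against 3.13% of all genes. The members' median absolute log2 difference was 0.04 and that of all genes at 10 CPM or above was 0.06. Without zinc replicate 3 the 74 calls over all genes were 5, and without zinc replicate 4 they were 899.

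Against control, zinc with glutamate gave 0 of 9 members past the threshold (0.0416% of all genes), 1, Slc39a11, at an unadjusted p under 0.05 (11.1% of all genes) and 0 without overlap (2.66% of all genes). TPA with glutamate gave 0 of 9 (0.0694% of all genes), 0 at an unadjusted p under 0.05 (3.09% of all genes) and 0 without overlap (1.33% of all genes). DESeq2 called 0 members in both. Values ran from -0.11 (Slc39a10) to 0.13 (Slc39a11) with zinc and from -0.07 (Slc39a1) to 0.10 (Slc39a13) with TPA, on the log2 scale.

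**Figure D2:**
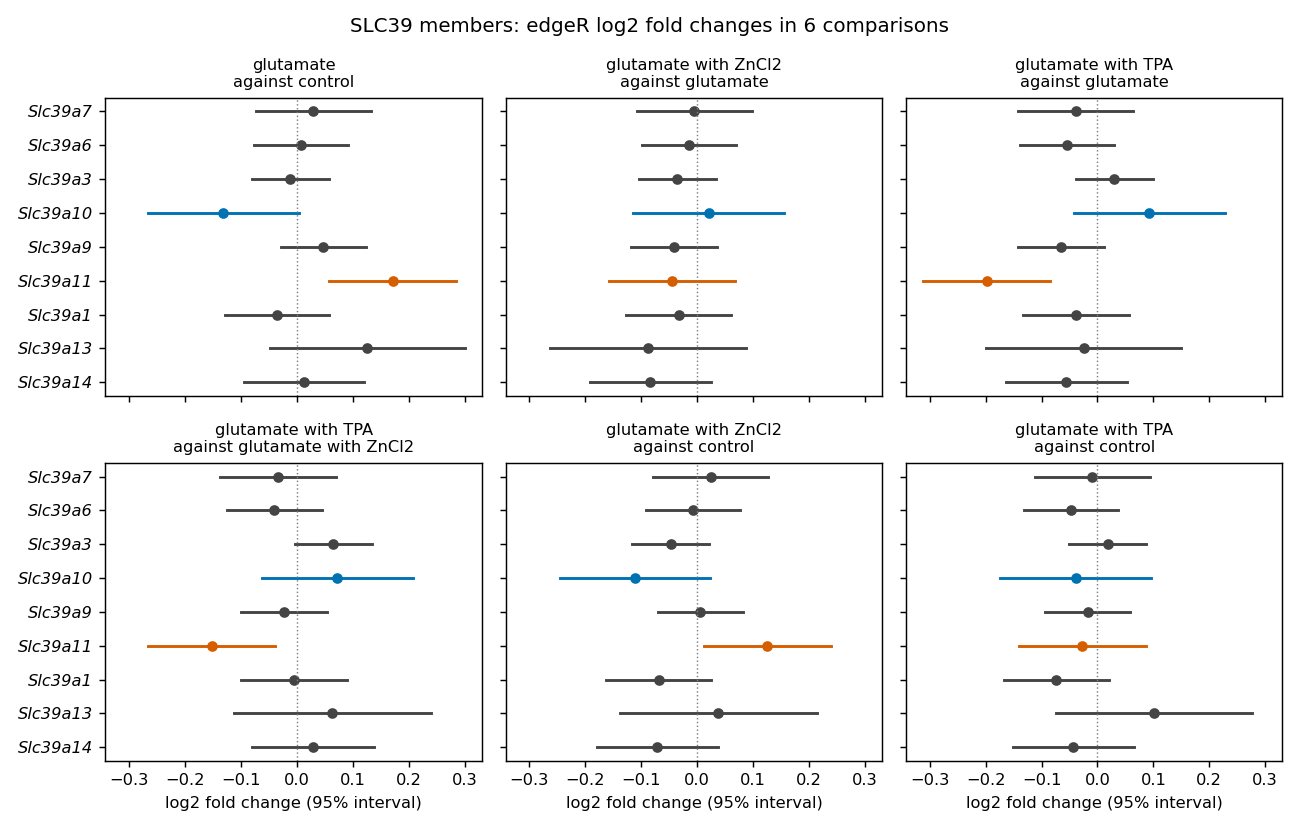
Log2 fold change (points, horizontal axis) with its unadjusted 95% interval (lines) for the 9 tested members in the 6 comparisons, from 1 edgeR model of 20 libraries; Slc39a11 is in orange and Slc39a10 in blue. Most intervals cross 0, and those of Slc39a11 do not in 4 panels, where its adjusted p-values were 0.168 to 0.889.

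Slc39a11 (chr11:113244855-113565815, minus strand, mm10) codes for ZIP11, an outlying member of the family in sequence that has been placed in the Golgi and nucleus. Its control libraries held 25.3, 27.1, 25.1, 23.8 and 25.2 CPM in replicate order. After glutamate they held 28.1, 31.2, 29.5, 27.4 and 26.3 CPM. Glutamate 5 was the only library of its group below the highest control. With glutamate and zinc the values were 29.6, 29.0, 27.5, 27.9 and 23.9 CPM, where replicate 5 stood alone in the range of the controls. With glutamate and TPA they were 24.7, 23.8, 25.2, 25.7 and 24.9 CPM, all within the control range or less than 0.1 CPM below it. Every TPA library lay below every glutamate library, so these groups did not overlap.

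The means of Slc39a11 were therefore near each other in control (25.3 CPM ± 1.15) and TPA (24.8 CPM ± 0.703), and higher in glutamate (28.5 CPM ± 1.92) and zinc (27.6 CPM ± 2.22; SD, n = 5 each). TPA against glutamate gave a log2 fold change of -0.20 (SE 0.05, edgeR adjusted p = 0.516), a difference of -12.8% with a 95% interval from -19.4% to -5.69%. Glutamate against control gave 0.17 (SE 0.05, edgeR adjusted p = 0.889), a difference of 12.6%. TPA against zinc gave -0.15 (SE 0.06, edgeR adjusted p = 0.168), and zinc against control 0.13 (SE 0.05, edgeR adjusted p = 0.416). The values of zinc against glutamate, -0.05 (SE 0.05), and of TPA against control, -0.03 (SE 0.06), were smaller than their errors. None of these passed the threshold over all genes.

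The result for Slc39a11 depended on how the libraries that stand apart were treated. Without glutamate replicates 4 and 5 and zinc replicate 5 it passed in 3 comparisons by edgeR: 0.23 for glutamate against control (adjusted p = 0.0403), -0.25 for TPA against glutamate (0.0117) and -0.20 for TPA against zinc (0.0122). Over all genes these comparisons then called 100, 551 and 1149, against 3, 0 and 74 with all 20 libraries. The means of Slc39a11 were then 29.6 CPM ± 1.57 over the 3 glutamate libraries left and 28.5 CPM ± 0.957 over the 4 zinc libraries left. Without zinc replicate 5 alone, TPA against zinc gave -0.20 (edgeR adjusted p = 0.0464, with 230 genes called in all), and zinc against glutamate gave 0.00057 in place of -0.05. limma-voom with library weights also called TPA against glutamate (-0.21, adjusted p = 0.0276), TPA against zinc (-0.17, 0.0111) and zinc against control (0.15, 0.0317). Its calls over all 14411 genes in these comparisons were 484, 3131 and 1825, against 0, 74 and 6 by edgeR. The 3 libraries were singled out over all genes and not by Slc39a11, but by the data.

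Slc39a10 (chr1:46807544-46853509, minus strand) codes for a cell-surface importer of the LIV-1 subfamily. Its control libraries held 96.7, 102, 102, 113 and 113 CPM, and its glutamate libraries 97.5, 96.3, 91.7, 90.1 and 105 CPM. With zinc they held 94.0, 87.1, 94.4, 94.5 and 118 CPM, and with TPA 97.7, 99.1, 98.7, 107 and 110 CPM. Replicate 5 was the highest library in each of the 4 groups, as it was for the summed glutamatergic neuron markers. For the summed GABAergic neuron markers replicate 5 was the lowest library of the glutamate and TPA groups, and not of the control and zinc groups. Zinc replicate 5 was the highest of all 20 libraries while the other 4 zinc libraries were all below every control. The means were 105 CPM ± 7.20 in control, 96.1 CPM ± 5.79 with glutamate, 97.5 CPM ± 11.7 with zinc and 102 CPM ± 5.56 with TPA (SD, n = 5 each), and all groups overlapped.

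For Slc39a10, glutamate against control gave a log2 fold change of -0.13 (SE 0.06, edgeR adjusted p = 0.950), a difference of -8.72% with a 95% interval from -16.9% to 0.208%. Zinc against control gave -0.11 (SE 0.06, edgeR adjusted p = 0.541), TPA against glutamate 0.09 (SE 0.07, 0.780), TPA against zinc 0.07 (SE 0.07, 0.624) and TPA against control -0.04 (SE 0.07, 1.000). Zinc against glutamate was 0.02 (SE 0.07), with -0.06 without zinc replicate 5 and -0.0011 without glutamate replicate 4. Without the 3 libraries that lay farthest from their groups, zinc against control was -0.19 (edgeR adjusted p = 0.0492), where the zinc mean was 92.5 CPM ± 3.60 over 4 libraries. limma-voom with library weights gave -0.16 for that comparison (adjusted p = 0.0348). Over all genes, zinc against control had 231 calls without the 3 libraries and 1825 with limma-voom, against 6 by edgeR with all 20 libraries.

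Slc39a6, on chromosome 18, codes for ZIP6, which can pair with ZIP10 in the membrane. It was the member with the highest CPM. Its libraries held 136, 141, 131, 134 and 134 CPM in control and 137, 145, 137, 134 and 127 CPM with glutamate. They held 142, 142, 136, 123 and 130 CPM with zinc and 132, 134, 131, 132 and 125 CPM with TPA. Group means lay between 131 CPM ± 3.27 in TPA and 136 CPM ± 6.34 in glutamate, and all groups overlapped. The edgeR F test gave an adjusted p = 0.890, and over the 6 comparisons the 95% intervals stayed between -9.18% and 6.56%.

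Slc39a7 (chr17:34028266-34031690, minus strand) codes for ZIP7, which releases zinc from the endoplasmic reticulum. Its libraries held 96.9, 99.4, 95.9, 91.3 and 92.6 CPM in control and 95.4, 103, 93.8, 105 and 88.5 CPM with glutamate. They held 97.3, 104, 99.8, 97.8 and 85.0 CPM with zinc and 94.5, 94.2, 96.0, 97.7 and 90.7 CPM with TPA. The lowest values of the glutamate, zinc and TPA groups were all in replicate 5. The SD was 6.89 CPM with glutamate and 7.14 with zinc against 3.27 in control and 2.62 in TPA. Without the 3 farthest libraries it was 5.19 over 3 glutamate libraries and 3.11 over 4 zinc libraries. The groups overlapped, with means from 94.6 to 97.2 CPM (edgeR F test, adjusted p = 0.971), and the 95% intervals stayed between -9.35% and 9.59%. In the GENCODE M21 annotation 2084 of 2584 exonic bases of Slc39a7 are shared with Gm20427, a processed transcript on the same strand, so its reads may be split differently by another annotation.

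Slc39a3 (chr10:81028540-81033912, minus strand) codes for ZIP3, a cell-surface importer, and was the steadiest of the 9 tested members. Its libraries held 96.0, 96.2, 93.8, 93.0 and 94.6 CPM in control and 92.6, 92.7, 94.8, 89.9 and 99.8 CPM with glutamate. They held 91.3, 91.5, 89.8, 93.7 and 92.0 CPM with zinc and 90.2, 99.6, 97.6, 96.3 and 96.1 CPM with TPA. TPA replicate 1 lay within the zinc range while the other 4 TPA libraries lay above it. TPA against zinc gave a log2 fold change of 0.07 (SE 0.03, edgeR adjusted p = 0.337), a difference of 4.65% with a 95% interval from -0.239% to 9.77%. limma-voom with library weights gave 0.09 for it (adjusted p = 0.0182), and called 3131 of 14411 genes in that comparison.

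The other tested members are given by their ranges. Slc39a1 (chr3:90248192-90253612, plus strand), which codes for a cell-surface importer related to ZIP3, had group means from 20.1 CPM in TPA to 21.2 CPM in control. Slc39a9 (chr12:80644215-80683342, plus strand), coding for a Golgi and surface protein also described as an androgen receptor, had means from 86.4 CPM in TPA to 90.3 CPM in glutamate. Slc39a13 (chr2:91061781-91070315, minus strand), whose protein lies in the Golgi and vesicles and matters for connective tissue, had means from 11.97 CPM in control to 13.1 CPM in glutamate. Slc39a14 (chr14:70303467-70351424, minus strand), coding for an importer of zinc, iron and manganese, had means from 16.0 CPM in zinc to 16.9 CPM in glutamate. Their edgeR F test adjusted p-values were 0.806, 0.815, 0.851 and 0.817 in this order, and no pair of groups was without overlap. The widest intervals of the 4 were those of Slc39a13, from -16.6% to 23.1%, and its highest library was glutamate replicate 4 at 16.2 CPM. Without the 3 farthest libraries the highest mean of Slc39a13 was with TPA, at 12.8 CPM beside 12.6 CPM with glutamate. That of Slc39a14 was then in control, at 16.8 CPM beside 16.5 CPM with glutamate. In GENCODE M21 the exons of Slc39a9 share 459 bases with Erh and those of Slc39a13 share 215 with Psmc3, both on the opposite strand, and no source used here states a strand setting for the counting.

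**Figure D3:**
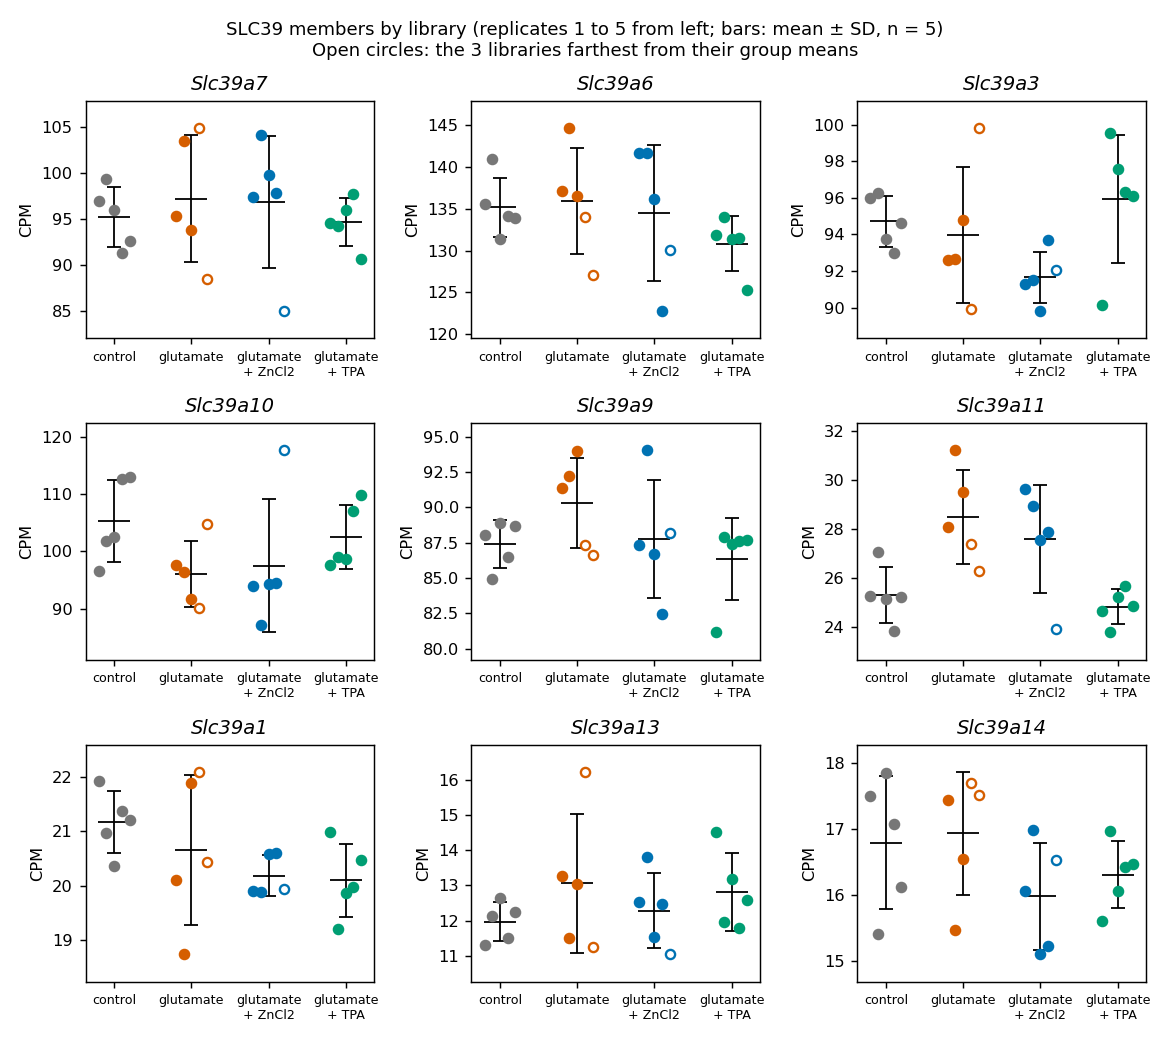
CPM of the 9 tested members in each of 20 libraries (points, replicates 1 to 5 from left within a group; vertical axes do not start at 0), with mean and SD as black bars (n = 5). Open circles mark glutamate 4, glutamate 5 and zinc 5, which lie farthest from their group means over all genes; only in Slc39a11 do all TPA libraries lie below all glutamate libraries.

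Slc39a8 (chr3:135825279-135888572, plus strand), whose protein imports zinc, manganese and cadmium and is closely related to ZIP14, was near the limit of detection. Its counts were 1, 3, 1, 7 and 4 in control, 0, 1, 1, 2 and 4 with glutamate, 7, 4, 1, 3 and 5 with zinc, and 0, 3, 2, 3 and 4 with TPA. These are 56 counts in all libraries together, with 16, 8, 20 and 12 in the groups in that order. A count of 3 corresponds to 0.0738 CPM in the deepest library and 0.105 CPM in the shallowest, counting error only. The filter on low counts left the gene out of the fit behind the other values. It entered the edgeR fit without that filter and 4 of the 7 DESeq2 tests, and passed in none, its adjusted p for zinc against glutamate being 0.878 in the first. A difference between groups was not detectable at this depth.

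The spread between libraries of 1 group differed among the members. The residual SD of log2 CPM was smallest for Slc39a3 (0.04) and Slc39a9 (0.05), and largest for Slc39a13 (0.14) and Slc39a10 (0.11). The median over 9146 genes with at least 10 CPM was 0.09. Slc39a10 lay above that median although it had 73757 counts in all.

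Members also varied together or against each other between libraries. After the group means were removed, Pearson's r over the 20 libraries was -0.79 between Slc39a7 and Slc39a10, 0.71 between Slc39a7 and Slc39a11, -0.61 between Slc39a10 and Slc39a11 and 0.60 between Slc39a6 and Slc39a11. Over the 17 libraries without the 3 farthest, these were -0.47, 0.63, -0.20 and 0.48. Of the 36 pairs 3 were past 0.6 in size with all libraries and 1 without those 3. These are descriptions: all genes of a library share its RNA, depth and scaling.

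**Figure D4:**
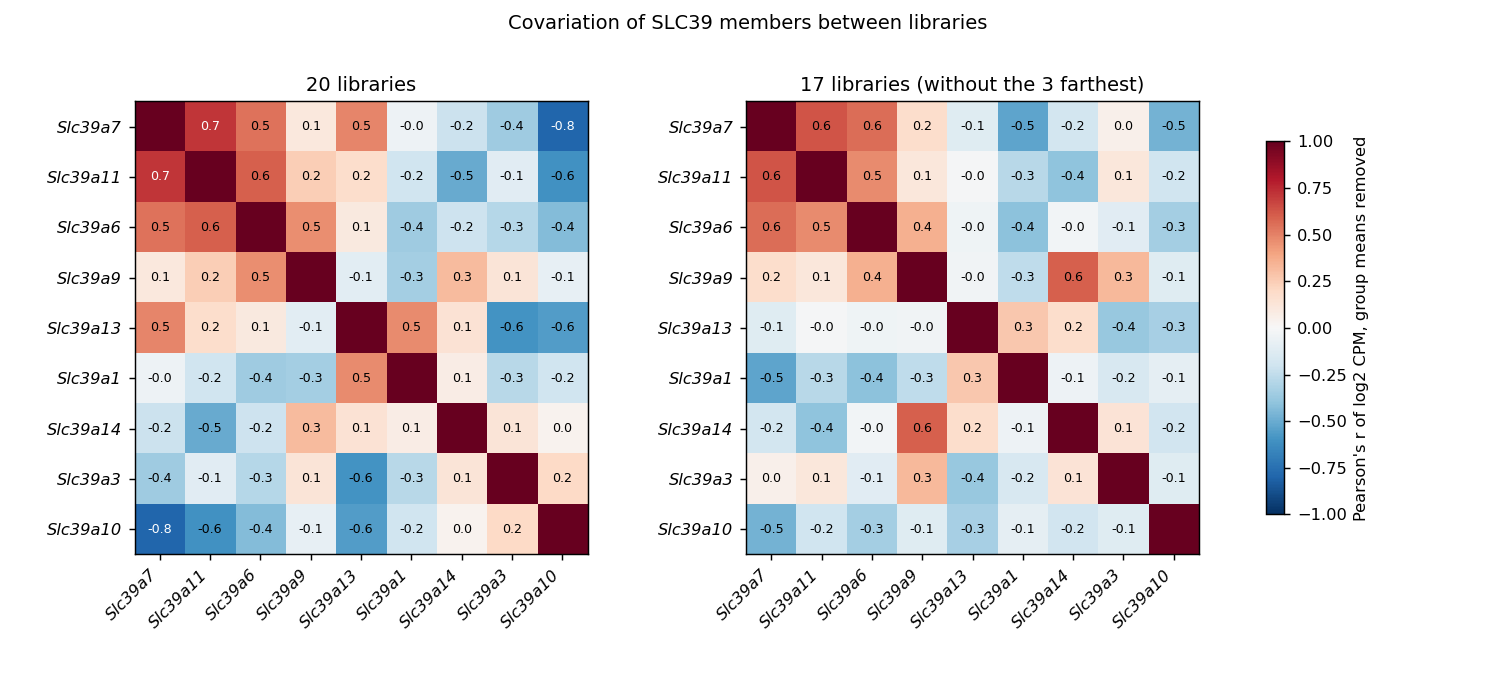
Pearson's r of log2 CPM between pairs of the 9 tested members after group means were removed, over 20 libraries (left) and over 17 (right, without the 3 farthest); red is positive and blue negative. The value of Slc39a7 with Slc39a10 is -0.79 on the left and -0.47 on the right, and that of Slc39a7 with Slc39a11 is 0.71 and 0.63.

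Slc39a10 followed the sum of the general neuron markers from library to library. With group means removed, its r with the summed CPM of Map2, Tubb3, Rbfox3, Snap25 and Syt1 was 0.906 over 20 libraries and 0.783 over 17, a relation looked at after the values were seen. The neuron sum was highest in zinc replicate 5, at 5060 CPM, as was Slc39a10, and lowest in glutamate replicate 4, at 3998 CPM, which was also the lowest glutamate library for Slc39a10. The summed GABAergic neuron markers were lowest of their group in glutamate replicate 5 (848 CPM) and TPA replicate 5 (904 CPM), where Slc39a10 was highest. They were 940 CPM in zinc replicate 5 (group range 939 to 1040) and 995 CPM in control replicate 5 (range 976 to 1058). How many of all genes reach such an r with the neuron sum was not counted. For Slc39a7 the r with the neuron sum was -0.76 (-0.24 over 17 libraries), for Slc39a13 -0.70 (-0.46) and for Slc39a11 -0.50 (-0.06). With the astrocyte sum the values of largest size were -0.53 for Slc39a7 (-0.24 over 17 libraries), -0.52 for Slc39a13 (-0.23), 0.51 for Slc39a10 (0.27) and -0.46 for Slc39a6 (-0.56), and Slc39a11 had -0.25 (-0.12). The part of cell composition in the members' values was not tested.

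The genes most like 3 of the members were taken from 11950 genes averaging 1 CPM or more, by the highest r after group means were removed. For Slc39a10 these were Ppp3ca, the catalytic subunit of calcineurin (r = 0.926 over 20 libraries, 0.836 over 17), Ube2k (0.919 and 0.817) and Zbtb18 (0.911 and 0.824). For Slc39a7 they were Prosc (0.937 and 0.798), Manf (0.924 and 0.829) and Cpe, a carboxypeptidase of secretory granules (0.918 and 0.730). For Slc39a11 they were Txnrd2, the mitochondrial thioredoxin reductase (0.865 and 0.825), Astn2 (0.850 and 0.594) and Emd (0.844 and 0.655). The highest of many values is high by selection, and the r over 17 libraries was lower for each of the 9 genes.

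Other genes of zinc handling were not called in the edgeR fit of all 20 libraries. Other fits were read only for the F test of Mt2, Mt1, Atp13a2, Tmem163, Slc30a1 and Mtf1. Of these, 3 were called by a fit given below. By edgeR none passed in any of the 6 comparisons or the F test among the 4 further SLC39 genes (2 tested, Slc39a2 and Slc39a12), the 10 SLC30 exporters (8 tested), the 5 buffers and sensor (4 tested: Mt1, Mt2, Mt3 and Mtf1) and 8 other genes of zinc, iron and manganese handling (8 tested). At an unadjusted p under 0.05 in the F test stood Mt2, Mt1, Atp13a2 and Tmem163. Mt2, a metallothionein that binds zinc, had 28.4 CPM ± 1.77 in control, 31.9 CPM ± 2.96 with glutamate, 35.9 CPM ± 4.11 with zinc and 27.9 CPM ± 3.47 with TPA (edgeR F test, adjusted p = 0.148). Mt1 had 52.0, 54.5, 59.6 and 51.9 CPM in the same order (edgeR adjusted p = 0.301). DESeq2 called Mt2 (adjusted p = 0.0075), as did edgeR without TPA replicate 1 (0.0310) and without the 3 farthest libraries (0.0113), where Mt1 also passed (0.0154). limma-voom with library weights called Mt2 (adjusted p = 0.000758), Mt1 (0.00659) and Atp13a2 (0.00275). Over all genes the F test called 193 by DESeq2, 957 by edgeR without the 3 farthest libraries and 3235 of 14411 by limma-voom.

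The endolysosomal ATPase gene Atp13a2 had 288, 277, 265 and 286 CPM in control, glutamate, zinc and TPA (edgeR adjusted p = 0.362), and Tmem163, coding for a zinc efflux protein of vesicles, 16.2, 18.1, 17.6 and 17.4 CPM (0.432). Slc30a1, the cell-surface exporter gene that MTF1 is known to induce, had 43.3, 45.9, 44.4 and 42.6 CPM (0.747). Mtf1 itself had 45.7, 45.7, 45.7 and 43.6 CPM (0.927). With zinc, Mt2 and Mt1 had their highest group means, and no tested SLC39 member had its highest group mean there over all 20 libraries. Without the 3 farthest libraries the highest mean of Slc39a7 was with zinc, at 99.8 CPM beside 97.5 CPM with glutamate, 95.2 CPM in control and 94.6 CPM with TPA.

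The authors' deposited tables list shrunken log2 fold changes for the same 6 comparisons and give 0 members an adjusted p under 0.05 in any of them. In the authors' deposited table, Slc39a11 stood at -0.16 (p = 0.000686, adjusted p = 0.330) for TPA against glutamate and at 0.14 (p = 0.00309, adjusted p = 0.869) for glutamate against control. For zinc against TPA the authors' deposited table gives Slc39a11 0.12 (p = 0.00976, adjusted p = 0.120) and Slc39a3 -0.06 (p = 0.0488, adjusted p = 0.277), out of 456 genes past the threshold there.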

How the data were processed

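Stranded libraries of polyadenylated RNA were sequenced from 20 cultures. Per the submitters' processing notes, the mouse build was mm10 and the tools were DESeq2 1.14.1 under R 3.3.0, featureCounts, HISAT2 2.1.0 with SAMtools 1.3.1, and Trimmomatic 0.36. The authors deposited whole-number counts of 24419 genes, which alone entered tests. The deposited TPM values are the counts divided by gene length and rescaled, and were recomputed from the deposited lengths to within 2.3e-06%. The authors' deposited comparison tables hold p-values raw and adjusted, a score that is the Wald statistic, a shrunken log2 fold change with its error, and a mean normalized signal; they are described only.

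Genes were kept by edgeR's filterByExpr, leaving 14411 genes with 99.98% of counts. A single edgeR 4.0.16 quasi-likelihood model (R 4.3.3, robust estimation, TMM factors) of 20 libraries with 4 group means gave 6 contrasts and 1 F test, with Benjamini-Hochberg adjustment over all genes and a threshold of 0.05. log2 CPM used a prior count of 2. The fit was also run on simulated counts, with larger changes than those of the members and no libraries that stand apart. That run therefore does not bear on differences as small as those seen here. Alternatives were DESeq2 1.42.0, its size factors, no filter, the 2 groups alone, a replicate block, limma 3.58.1 voom with library weights, omission of the 3 farthest libraries or of each library, and, added after seeing the data, no robust estimation.

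The members, lists and tests were chosen with earlier results of these data known. Values per library are given for Slc39a10, the 2 members with the highest TPM, the one with the lowest, and the 3 with the smallest F test p; zinc-handling genes are named by the 4 smallest F test p-values plus Mt1, Mt2, Slc30a1 and Mtf1. Protein sequences were not used here. No libraries were identical, and 0 columns lacked a sample.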

Additional observations from a re-analysis of the deposited data

Results flagged for a closer look

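Within the groups of 5 libraries, a sample far from the others was found in 2 of 40 combinations of member and group, where chance marks about 1 in 20. Slc39a9 had 81.1 CPM in TPA replicate 1, below the other 4 TPA libraries, with 93.1% of the group's range lying in that gap. Slc39a10 had 117.7 CPM in zinc replicate 5, above the other 4 zinc libraries, with 75.9% of the range in the gap, and that library also had the highest summed neuron markers, 5060 CPM. Their part in the value was not tested.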

How the results depend on the processing

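Mean TPM of the 10 members was the same when recomputed from counts and lengths. The counts of members called were 0 in all 7 tests with DESeq2, DESeq2's size factors, no low-count filter, the 2 groups alone (contrasts), the replicate block and no robust estimation. With limma-voom library weights they were 1 for TPA against glutamate and 2 each for TPA against zinc, zinc against control and the F test. Beside them stood 484, 3131, 1825 and 3235 of 14411 genes called in these tests. Without the 3 farthest libraries they were 1 each for glutamate against control, TPA against glutamate, TPA against zinc and zinc against control, and 2 for the F test. The calls over all genes were then 100, 551, 1149, 231 and 957 in this order. Leaving out single libraries gave 0 to 1 for TPA against zinc (1 without zinc replicate 5, where 230 of all genes were called) and 0 in the other tests. In the F test limma-voom gave adjusted p-values of 0.0421 for Slc39a10 and 0.00300 for Slc39a11, and the fit without the 3 farthest gave 0.0444 and 0.00553. Zinc against glutamate changed sign for Slc39a10, to -0.032 with limma-voom weights and -0.042 without the 3 farthest libraries, and ran from -0.056 to 0.053 over single omissions. For Slc39a11 it ran from -0.077 to 0.00057.

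Counts over all genes moved more. With DESeq2 they were 14 for glutamate against control, 1 for zinc against glutamate, 1 for TPA against glutamate, 483 for TPA against zinc, 64 for zinc against control and 193 in the F test. With limma-voom weights they were 59, 107, 484, 3131, 1825 and 3235 in this order, and without the 3 farthest libraries 100, 1, 551, 1149, 231 and 957. Glutamate against control gave 5 with DESeq2's size factors and 6 without robust estimation, and TPA against zinc gave 41 without the filter and 6 with the 2 groups alone. Over single omissions the ranges were 2 to 5 for glutamate against control, 0 to 3 for zinc against glutamate, 0 to 2 for TPA against glutamate, 5 to 899 for TPA against zinc, 3 to 100 for zinc against control, 6 to 11 for TPA against control and 5 to 136 for the F test. The cause was not tested.

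The replicate block gave 422 genes for TPA against zinc, 39 for zinc against control and 100 in the F test. Without the block these were 74, 6 and 24. The labels do not say that a number marks a shared culture or day. Nor did every pair of same-numbered libraries correlate above 0.1. The numbers were therefore not used as pairs in the main fit. A limit that every pair must pass is not a test of pairing, and missing it does not show that the numbers share nothing. Over 30 pairs the correlation of their deviations ran from -0.070 to 0.497 (median 0.056), and 11 were above 0.1. Of 20 libraries, 9 correlated best with their own number. How many would do so by chance was not worked out, so this count is not to be read as weak pairing. For Slc39a10 the same replicate number was highest in every group. Whether the numbers mark a shared culture or day was not tested. Depth limits what any fit could show for Slc39a8, which the low-count filter removed.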
